A study of Mus musculus with 23 samples.

Results

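The bins that hold Nom1 and Mnx1 were followed through 5C contact maps of mouse chromosome 5. 5C (chromosome conformation capture carbon copy) counts ligation junctions between restriction fragments of a chosen region, so that a high value marks 2 stretches of DNA that often lay close together in fixed nuclei. The maps divide the region around Shh into 80 bins of 21 kb. Nom1 lies in bins 68 and 69 and Mnx1 in bin 70, which the matrices name bin68|mm9|chr5:29745087-29766087, bin69|mm9|chr5:29766087-29787087 and bin70|mm9|chr5:29787087-29808087. These 3 bins of 80 are set by the positions of the 2 genes, with no contact value in the rule, and they enter 234 of the 3160 pairs of different bins.

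The comparisons use 21 libraries. 12 come from edited E14 mouse embryonic stem cells (ESC), 2 each of the line D35 and of the lines DCTCF1, DCTCF2, DCTCF3, DCTCF4 and DCTCF5, and they were set against 2 libraries of wild type E14 ESC. At E11.5, a stage named by days of embryonic development, in the CD1 strain, 2 libraries (each merged from 2 technical replicates) come from whole D700 embryos, 2 from the posterior limb bud, 2 from the anterior limb bud and 1 from the embryo body. The labels give neither the position of the deleted CTCF sites, nor the number of clones behind a line, nor the number of embryos pooled. The replicates are called biological in the titles, but separate cultures or litters are not described, so the p-values measure the spread between these libraries. The run name of DCTCF2 replicate 2 carries a technical mark, so that the spread within DCTCF2 may be technical.

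The 3 bins lie in the domain to the right of bin 65, a boundary. On its left side lie the bins taken here for Lmbr1 (bins 59 to 64) and, further left, Shh (bin 22). Domains of this kind (topologically associating domains) are stretches within which DNA contacts itself more than its surroundings, and the protein CTCF sits at many of their edges. An intron of Lmbr1 carries the ZRS (bin 63), the enhancer that turns Shh on in the posterior limb bud. Nom1 encodes a nucleolar protein with an MIF4G domain, and Mnx1 encodes a homeobox transcription factor of motor neurons and pancreas. In the RefSeq gene order Nom1 and Mnx1 are neighbours, between Lmbr1 and Ube3c. The bins of Shh, the ZRS, Lmbr1 and En2 (bin 8) come from general knowledge of the mm9 map and were not checked against an mm9 annotation here. Whether Lmbr1 reaches beyond bin 64, into bin 65 or further right, was therefore not tested.

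The stretches of 250 bases before the starts of the 2 genes are shown because the edited lines are named for CTCF. They come from RefSeq on the GRCm38.p6 build, and no contact value is tied to them, since a bin is far longer than a promoter. Nom1 is read from the plus strand (chr5:29434417-29434666) and Mnx1 from the minus strand (chr5:29478471-29478720). Capitals mark a match on either strand to the steadiest letters of the CTCF motif, which read CCA, 2 free bases, AG, 2 free bases and GGC.
Nom1: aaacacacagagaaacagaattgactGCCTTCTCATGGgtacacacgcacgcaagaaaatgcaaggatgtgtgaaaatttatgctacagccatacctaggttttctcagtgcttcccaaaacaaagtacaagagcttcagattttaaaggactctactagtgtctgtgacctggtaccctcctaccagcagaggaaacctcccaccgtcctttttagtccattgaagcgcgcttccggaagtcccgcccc
Mnx1: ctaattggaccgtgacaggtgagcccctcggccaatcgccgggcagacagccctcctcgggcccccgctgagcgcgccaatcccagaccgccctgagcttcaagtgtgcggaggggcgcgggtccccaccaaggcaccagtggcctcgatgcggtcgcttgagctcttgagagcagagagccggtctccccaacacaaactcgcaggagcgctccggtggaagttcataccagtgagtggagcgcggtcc
Of 32851 stretches of this length before genes, 2.07% hold such a match. The Nom1 stretch holds 1 and the Mnx1 stretch none, and a match is not a measured CTCF site. AAGCTT, the HindIII site at which the libraries were cut, is in neither stretch, against 6.22% of all.

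In the libraries without the D700 deletion, the contact values of the Nom1 and Mnx1 pairs made up 5.87 to 9.26% of the value in all pairs of different bins. The 2 Nom1 bins are not independent of each other. With 59 of the 74 bins outside Nom1 and Mnx1, bins 68 and 69 carry exactly the same deposited value, and so most contacts of Nom1 to the left of the boundary exist once, for both bins. The 2 bins differ mainly in their contacts within the right domain. The fragment matrices of the limb buds place 3 HindIII fragments in bin 68, 9 in bin 69 and 4 in bin 70.

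Within 189 kb of each viewpoint, contacts to the right were set against contacts to the left at the same separations (2 to 9 bins), as log2 of the mean on the right over the mean on the left. Nom1 bin 68, nearest to the boundary, contacted its right side more in every ESC library. Its log2 ratio averaged 0.56 ± 0.18 (SD, n = 14), with values of 0.30 to 1.05, and was above 0 in 14 of 14 libraries (exact two-sided sign-flip permutation test over libraries, adjusted over 3 bins, p = 0.000366). In wild type ESC this was the 4th highest of 59 bins that could be scored. Mnx1 bin 70 leaned the other way, towards the boundary. Its log2 ratio averaged -0.86 ± 0.51 (SD, n = 14) and was above 0 in 1 of 14 libraries, D35 replicate 1 at 0.19 (same exact test, adjusted p = 0.000549). Part of this lean lay in bin 66: without that bin the mean was -0.54 (same exact test, adjusted p = 0.000366), and the wild type values were -0.32 and -0.44, against -0.87 and -0.79 with it. In wild type ESC, with bin 66, it ranked 57th of 59. Nom1 bin 69, between them, averaged -0.15 ± 0.18 (SD, n = 14; same exact test, adjusted p = 0.0122), and this sign does not stand by itself: without the boundary bin 65 the mean was 0.06, and without bin 66 it was 0.04. Leaving out bin 66 was a choice made after seeing the data. In D35, bin 65 read 0 with all 3 bins and entered these ratios as 0, which lowered the left mean. That line holds the highest value of bin 68 (1.05) and the only value of bin 70 above 0 (0.19). With bin 65 left out of every library, bins 68 and 70 kept sign and threshold. The 14 libraries come from 7 lines with 2 libraries each. Over the 7 line means, for which 0.0156 is the smallest p the exact test allows before adjustment, bins 68 and 70 gave adjusted p = 0.0469 each and bin 69 gave adjusted p = 0.0781.

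The 5 unedited E11.5 libraries, given as values without a test, ranked the bins in the same order. Bin 68 lay between 0.62 and 0.98, bin 69 between 0.03 and 0.37, and bin 70 between -2.62 and -1.10. All 5 values were above 0 for each Nom1 bin and below 0 for Mnx1. The Mnx1 values rested on bin 66: without it, they lay between -0.52 and 0.10.

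**Figure D1:**
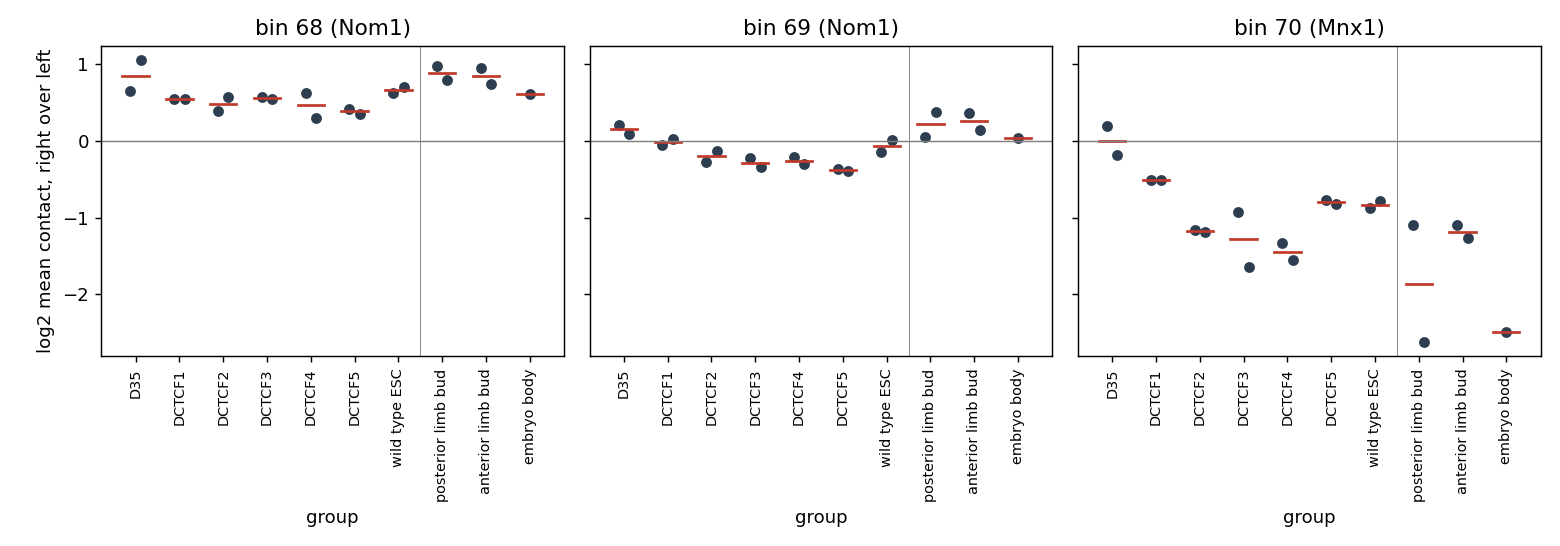
Log2 ratio of mean contact to the right over mean contact to the left, at separations of 2 to 9 bins, for the 2 Nom1 bins and the Mnx1 bin. Each point is 1 library and each red line a group mean; ESC groups stand left of the vertical line and E11.5 groups right of it. Bin 68 is above 0 in every library shown, and bin 70 is below 0 in all but 1 library of D35, at 0.19.

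Mnx1 and Nom1 also differed in how they reached the other domains. Observed over expected (the contact value divided by the mean of all pairs at that separation in the library, so that 1 is the level set by distance) was averaged over each region, and the Mnx1 bin was set against the mean of the Nom1 bins in each of the 14 ESC libraries. With Lmbr1 across the boundary, Mnx1 averaged 0.66 ± 0.11 and Nom1 0.48 ± 0.12 (SD, n = 14 each). The log2 difference was 0.48 ± 0.16, higher for Mnx1 in 14 of 14 libraries (exact two-sided sign-flip permutation test, adjusted over 4 regions, p = 0.000488). Both levels were below 1, so both genes contacted the bins taken here for Lmbr1 less than other pairs at that distance. Any part of Lmbr1 outside those bins is not covered by these levels. With the left end of the region (bins 0 to 20), Mnx1 averaged 1.51 ± 0.22 and Nom1 1.13 ± 0.07, and the log2 difference of 0.41 ± 0.22 was above 0 in 13 of 14 libraries (same exact test, adjusted p = 0.000488). Without bin 8, which holds the highest of these contacts, the mean difference was 0.24 ± 0.20 and still above 0 in 13 of 14.

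With the Shh side of the Shh domain (bins 22 to 58), the levels were 0.79 ± 0.07 for Mnx1 and 0.72 ± 0.09 for Nom1 (SD, n = 14 each; log2 difference 0.14 ± 0.18, exact permutation test, adjusted p = 0.0155). Over the 7 line means that difference gave adjusted p = 0.0781 by the same exact test. In wild type ESC, bins 28, 30 and 31 carried the same value with Mnx1 as with Nom1, so part of this comparison rests on shared values. Towards the far right (bins 72 to 79) Mnx1 was lower, at 0.77 ± 0.20 against 0.99 ± 0.08 for Nom1 (log2 difference -0.41 ± 0.47, below 0 in 13 of 14 libraries, exact permutation test, adjusted p = 0.00147). This last difference rested on bin 68: against bin 69 alone it was -0.014 (exact permutation test, adjusted p = 0.891). Over the 7 line means the far right difference of -0.41 gave adjusted p = 0.0625. In the 5 unedited E11.5 libraries the differences had the same sign for Lmbr1 (0.21 to 0.42), the left end (0.01 to 0.50) and the far right (-0.52 to -0.10) in every library, while the Shh side gave -0.20 to 0.04.

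**Figure D2:**
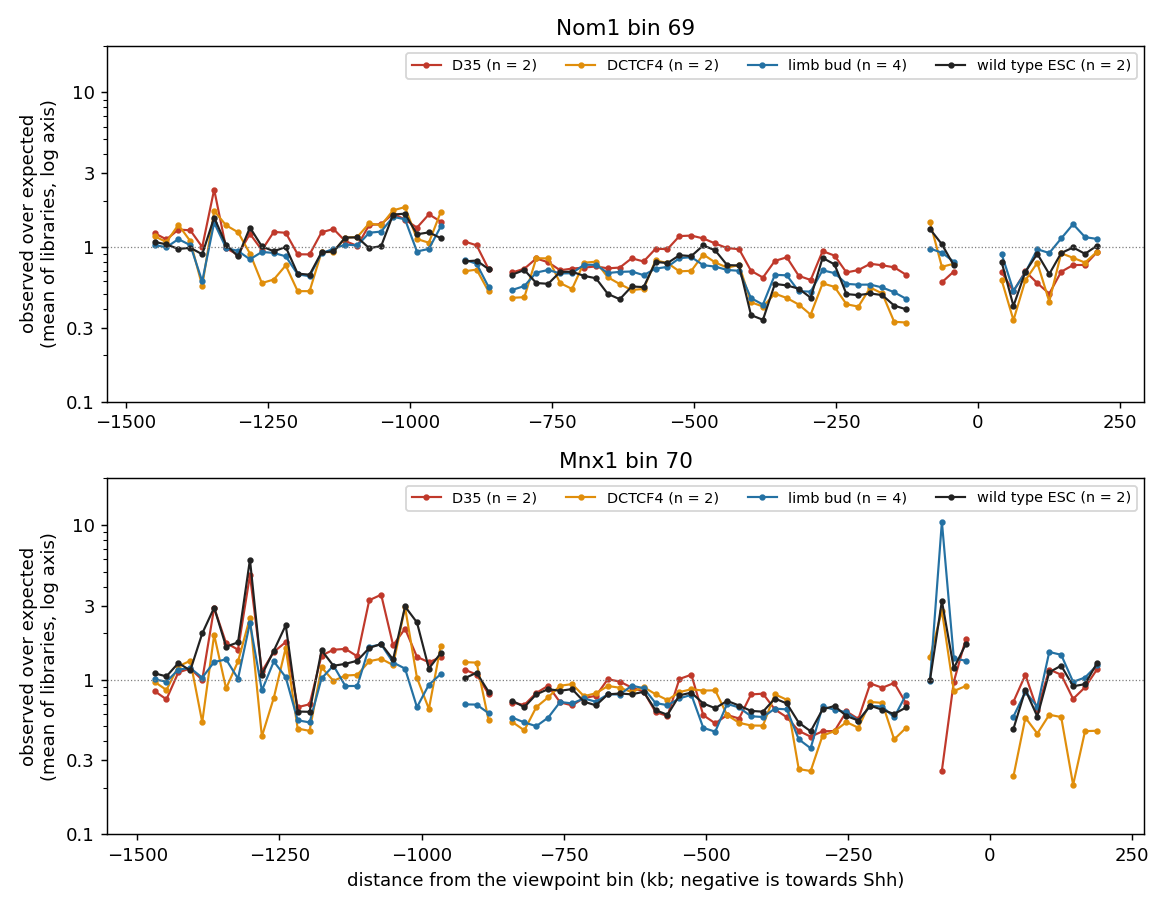
Observed over expected of Nom1 bin 69 and Mnx1 bin 70 with every bin at least 2 bins away, against distance in kb, on a log axis. Lines are means of D35 (n = 2), DCTCF4 (n = 2), limb bud (n = 4) and wild type ESC (n = 2) libraries. No mean of the Nom1 profile exceeds 2.36, while in wild type ESC Mnx1 reaches 3.23 with bin 66 (84 kb to the left) and 5.97 with bin 8 (1302 kb to the left).

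The partners that stood highest for Nom1 bin 69 in wild type ESC were bins 21 and 20, beside Shh, with an observed over expected of 1.65 and 1.62. The highest partner of Nom1 bin 68 in wild type ESC was bin 21, at 1.74, and there Mnx1 had far higher peaks. In other groups bin 68 stood higher. It had 3.06 with bin 74 in DCTCF4, and 2.917 and 2.805 with bin 78 in the posterior and anterior limb bud.

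In the embryo, the strongest contact of Mnx1 joined it to bin 66, the first bin right of the boundary, 84 kb away. Whether bin 66 holds a gene or part of Lmbr1 was not checked. Its observed over expected was 18.7 and 5.46 in the D700 libraries. Among the unedited E11.5 libraries it was 6.20 and 20.4 in the posterior limb bud, 6.53 and 8.90 in the anterior limb bud and 23.3 in the embryo body. It ranked 1st or 2nd among the 2853 pairs of each unedited E11.5 library, and 1st among the 993 pairs of each D700 library. In wild type ESC the same pair had 3.87 and 2.58, and ranked 7th and 63rd. The Nom1 bin 69 next to it, 1 bin closer to bin 66, showed no such excess, with 0.82 to 1.19 in unedited E11.5 libraries and 1.06 and 1.03 in wild type ESC.

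As a scaled contact value (each library brought to the same total), the pair of bins 66 and 70 was 235.8 and 921.8 in the posterior limb bud and 276.8 and 423.2 in the anterior limb bud, against 157.6 and 106.9 in wild type ESC. The posterior replicates lay furthest apart. The log2 difference of limb bud from wild type ESC was 1.59 ± 0.47 (SE; limma, adjusted p = 0.232), and that of posterior from anterior limb bud was 0.44 ± 0.58 (SE; limma, adjusted p = 0.778). Neither passed 0.05.

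The fragment counts of the limb bud libraries show what this bin pair is made of. Of its 28 fragment pairs, a single one, Shh_458 (chr5:29703904-29705290, mm9) with Shh_491 (chr5:29806189-29807449, mm9), held 4009 and 34092 counts in the posterior and 5068 and 10215 counts in the anterior libraries. These were 73.2 to 94.9% of the counts of the bin pair. It was the 1st to 3rd highest of all 58653 fragment pairs in each library. Counts of the bin pair amounted to 0.658% (95% Wilson interval 0.640 to 0.677) and 2.56% (2.54 to 2.59) of the posterior libraries, and to 0.677% (0.662 to 0.693) and 0.920% (0.904 to 0.936) of the anterior ones. The intervals cover counting error only, and reads without molecular identifiers are not independent molecules. Without the top fragment pair the shares were 0.124 and 0.131% in the posterior and 0.182 and 0.181% in the anterior limb bud. The excess of posterior replicate 2 thus lay in 1 fragment pair. By edgeR's quasi-likelihood test that fragment pair differed by 1.01 on the log2 scale (adjusted p = 1.00 after rounding), and whether amplification differed between the libraries was not tested.

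**Figure D3:**
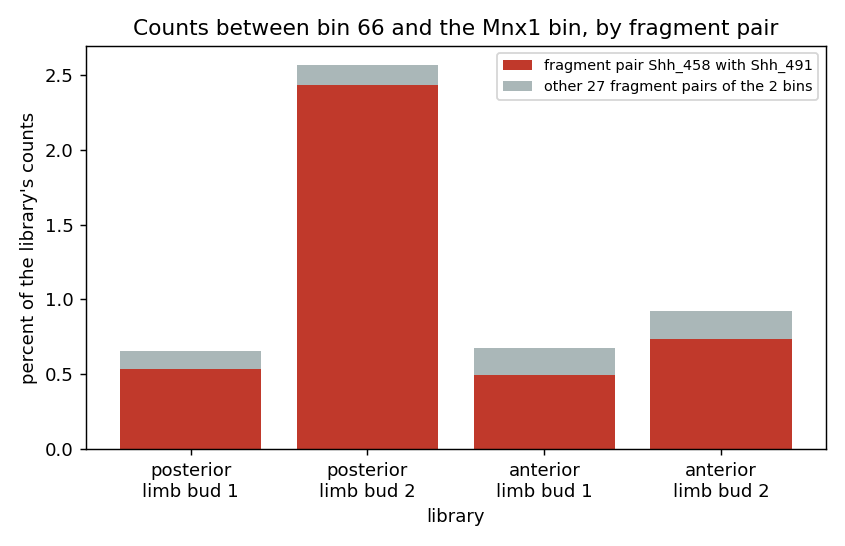
Share of each limb bud library's counts between bin 66 and Mnx1 bin 70, in percent, as stacked bars. Red is the fragment pair Shh_458 with Shh_491 and grey the other fragment pairs of these bins; posterior replicate 2 reaches 2.56% in all, and the grey parts lie between 0.124 and 0.182%.

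The other peak of Mnx1 lay 1302 kb away, at bin 8, where En2, a homeobox gene of the midbrain and hindbrain, is placed. Bin 8 was singled out after its values were seen. Observed over expected of the pair was 7.26 and 4.69 in wild type ESC and 2.04 to 7.14 in the 12 libraries of edited ESC. With Nom1 bin 69, the same bin 8 had 1.42 and 1.26 in wild type ESC. Among the 769 pairs at least 40 bins apart, the pair of Mnx1 and bin 8 ranked 1st and 2nd in the wild type libraries, with a median rank of 1 over the 14 ESC libraries. In the unedited E11.5 libraries it was 1.92 to 3.54, and ranked 7th to 24th.

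With the Shh bin, Mnx1 stood above the level set by distance in wild type ESC. That pair had an observed over expected of 3.12 and 1.57 in wild type ESC, and 0.51 to 0.85 in the 5 unedited E11.5 libraries. The edited ESC lines did not all share this, with 0.852 and 0.780 in DCTCF1 and 1.17 and 0.885 in DCTCF4. In scaled contact value it was 5.80 and 7.63 in the posterior and 6.72 and 9.08 in the anterior limb bud, against 33.3 and 14.9 in wild type ESC. For Mnx1 with bin 8 the limb values were 26.6 to 34.3, against 122 and 55.1 in wild type ESC. The log2 differences, limb bud minus wild type ESC, were -1.16 ± 0.25 for Shh and -1.31 ± 0.28 for bin 8 (SE; limma, adjusted p = 0.215 each). The 2 wild type replicates differ by a factor of more than 2 in both pairs, and neither difference passed.

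**Figure D4:**
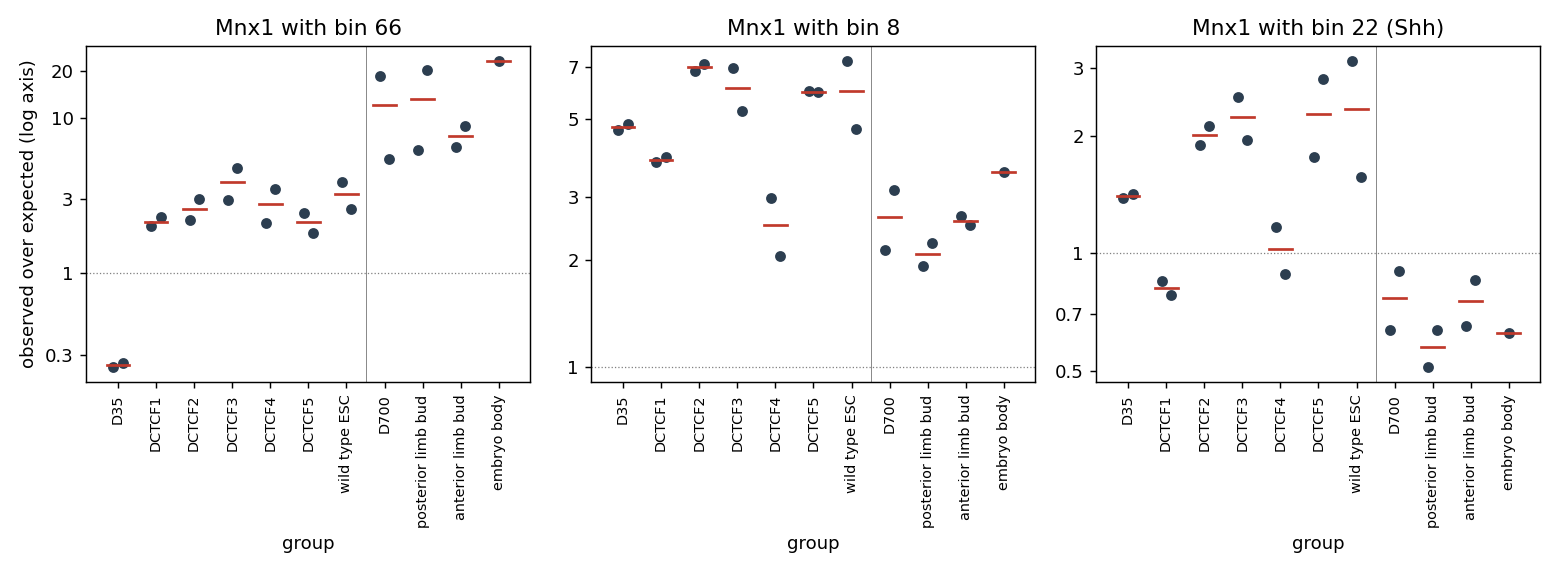
Observed over expected of Mnx1 bin 70 with bin 66, bin 8 and bin 22 (Shh) in every library, on log axes. Each point is 1 library and each red line a group mean; ESC groups stand left of the vertical line, E11.5 groups right. D35 has 0.251 and 0.266 with bin 66. The E11.5 libraries are the highest with bin 66 and lie at or below 0.90 with Shh. For D700 the expected level comes from the bins left in its matrices, at separations of the undeleted map. Its values are therefore not directly comparable with those of the other libraries.

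The next question was whether the edited lines changed these contacts. For each comparison every pair at least 2 bins apart was tested (221 with a Nom1 or Mnx1 bin), and the mean contact of every bin with each of 5 regions (15 means for the 3 bins), by limma with Benjamini-Hochberg adjustment over all pairs or all means. All ESC comparisons share the 2 wild type libraries, so that their results are not independent of each other.

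In D35, the contact of Mnx1 with bin 66 was nearly gone. The scaled value was 9.58 and 9.39 in D35, against 158.0 and 107.5 in wild type ESC, and every library of the DCTCF lines lay between 74.1 and 185.3. The log2 difference was -3.27 ± 0.26 (SE; limma, adjusted p = 2.2e-05). Nom1 bin 69 also lost contact with bin 66, at 28.03 and 24.76 in D35, against 51.7 and 53.3 in wild type ESC (log2 difference -0.88 ± 0.18, SE; limma, adjusted p = 0.0271), a call lost when any 1 of the 4 libraries is left out (adjusted p of 0.118 to 0.309). These were the 2 pairs of 218 that fell, 0.917%, against 0.612% of all 2778 pairs.

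Bin 66 itself read differently in D35. Its deposited value with itself was listed at 0 in both D35 libraries, against 667.6 and 617.4 in wild type ESC. With bin 67 it had 3.83 and 2.86 in D35, against 139.7 and 388.9 in wild type ESC. Its mean contact with bins at least 2 away was 14.5 and 14.9 in D35, against 20.9 and 19.3 in wild type ESC. Bin 66 with Nom1 bin 68 was not lost in the same way, with 101.9 and 62.7 in D35, against 102.1 and 115.3 in wild type ESC. How far the deletion reaches is not stated in the labels, so a lost sequence and a lost contact cannot be told apart in bin 66.

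Mnx1 gained contact with bins 18 and 19, which share 1 deposited value. It was 39.4 and 30.3 in D35, against 16.7 and 13.8 in wild type ESC (log2 difference 0.99 ± 0.17, SE; limma, adjusted p = 0.00528). These 2 pairs of 218 (0.917%) rose, against 0.504% of all pairs. The call is lost without D35 replicate 1 or without wild type replicate 2 (adjusted p = 0.121 and 0.106).

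Nom1 contacted Lmbr1 more in D35. Bin 65, which lies between them, read 0 with all 3 bins in D35. For this and every other pair across bin 65, a shorter stretch of DNA and a changed contact cannot be told apart. The mean value with bins 59 to 64, the same for bins 68 and 69, was 16.6 and 19.2 in D35, against 12.0 and 12.0 in wild type ESC. The log2 difference was 0.44 ± 0.11 (SE; limma, adjusted p = 0.0198). Both D35 libraries were above all other ESC libraries, the highest of which reached 14.8. Leaving out D35 replicate 2 ended the call (adjusted p = 0.156), and so did leaving out either wild type library (adjusted p = 0.08598 and 0.08255). These are 2 of the 12 means of the 3 bins (16.7%), against 6.25% of all 304 means that rose, and as both repeat 1 value they amount to 1 observation. The pair of Nom1 with the ZRS bin alone was 18.8 and 19.8 in D35, against 10.85 and 13.6 in wild type ESC, and did not pass (log2 difference 0.51 ± 0.15, SE; limma, adjusted p = 0.206). For Mnx1 with the ZRS bin the values overlapped, at 21.9 and 15.1 in D35, against 19.4 and 18.9 in wild type ESC.

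Within the right domain both genes had lower means in D35. Mnx1 had 35.2 and 37.5 in D35, against 50.9 and 49.9 in wild type ESC (log2 difference -0.43 ± 0.09, SE; limma, adjusted p = 0.00684). Nom1 bin 69 had 25.3 and 21.8, against 30.0 and 33.7 (log2 difference -0.37 ± 0.09, SE; limma, adjusted p = 0.0198). These were 2 of the 12 means (16.7%), against 1.97% of all means that fell. For Mnx1 the fall sat in bin 66. With that bin left out of every library, an alternative chosen after seeing the data, the log2 difference was -0.11 (adjusted p = 0.602). The call for bin 69 was lost under observed over expected (adjusted p = 0.0552), without D35 replicate 2 (0.156) and without wild type replicate 2 (0.113). No other libraries were run in the year of the D35 libraries, and run year and line cannot be told apart.

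Of the DCTCF lines, only DCTCF4 had a call for the contact of Mnx1 with its own domain. The mean of Mnx1 with the right domain was 29.03 and 33.09 in DCTCF4, against 50.9 and 49.8 in wild type ESC. The log2 difference was -0.63 ± 0.08 (SE; limma, adjusted p = 0.00251), 1 of 15 means (6.67%), against 1.83% of all 383 means that fell. Both DCTCF4 values were also below every value of the other edited lines, the lowest of which was 36.3 in D35 (35.2 for the same library in the fit of D35 above, which leaves out bin 65 and so scales over fewer pairs). The call held in every alternative tried, with log2 differences of -0.73 to -0.38, and without bin 66 the value was -0.73. From wild type replicate 2, run in the same year, the difference was -0.61, and with run year in the model it was -0.64 (adjusted p = 0.0109). In the same fit no such mean of Nom1 was called. Bin 68 was not lower, at 54.5 ± 0.65 in DCTCF4 and 51.6 ± 5.9 in wild type ESC (SD, n = 2 each, limma adjusted p = 0.685). Bin 69 was lower without passing, at 27.6 ± 1.7 in DCTCF4 and 31.8 ± 2.5 in wild type ESC (SD, n = 2 each, limma adjusted p = 0.325). Its observed over expected with the right domain was 0.703 and 0.718 in DCTCF4, against 0.791 and 0.869 in wild type ESC.

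The pairs that passed lay towards the right edge of the map. Mnx1 with bin 79, the last bin, had 12.6 and 7.86 in DCTCF4, against 30.0 and 32.1 in wild type ESC (log2 difference -1.29 ± 0.18, SE; limma, adjusted p = 0.00434). With bin 76 it had 16.5 and 17.1 in DCTCF4, against 37.8 and 37.8 (log2 difference -0.99 ± 0.18, SE; limma, adjusted p = 0.0249). With bin 77 it had 7.42 and 4.55, against 22.3 and 30.6 (log2 difference -1.56 ± 0.31, SE; limma, adjusted p = 0.0400). The 3 pairs that fell are 1.36% of 221, against 0.596% of all 2853, and none rose (0.0351% of all). Pairs nearer to Mnx1 also lay below wild type without passing. With bin 75 Mnx1 had 18.9 and 18.8 in DCTCF4, against 36.1 and 39.5 in wild type ESC (limma, adjusted p = 0.106), and with Nom1 bin 68 it had 74.1 and 58.6 in DCTCF4, against 97.5 and 118.6 in wild type ESC (limma, adjusted p = 0.132). Leaving out 1 library left between 0 and 12 such calls; without wild type replicate 1 these 3 pairs gave adjusted p of 0.06625 to 0.146, and without DCTCF4 replicate 2 only 1 call was left.

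2 further changes of DCTCF4 missed the threshold. Mnx1 with bin 8 was 34.0 and 26.3 in DCTCF4, against 122.4 and 55.3 in wild type ESC (log2 difference -1.34 ± 0.28, SE; limma, adjusted p = 0.0548). Against wild type replicate 2, the library of the same year, it was -0.79. Nom1 bin 68 with bin 74 was 92.1 and 87.9 in DCTCF4, against 56.0 and 33.1 (log2 difference 0.98 ± 0.24, SE; limma, adjusted p = 0.0690). Of the means, none rose for the 3 bins, against 3.92% of all.

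The lines DCTCF1, DCTCF2, DCTCF3 and DCTCF5 gave no call for Nom1 or Mnx1, with 0 of 221 pairs and 0 of 15 means in each. Calls among all pairs were as rare, at 0% in both directions except 0.0351% lower in DCTCF2, and 0% for the means. At an unadjusted p under 0.05, 1, 3, 10 and 10 pairs of the 3 bins were higher in these 4 lines and 5, 21, 11 and 2 were lower. As shares of 221 pairs, the higher ones were 0.452, 1.36, 4.52 and 4.52%, against 5.22, 3.40, 2.38 and 2.56% of all 2853 pairs. The lower ones were 2.26, 9.50, 4.98 and 0.905%, against 2.91, 6.10, 4.63 and 2.52% of all pairs. The mean of Mnx1 with the right domain was 41.2 and 43.2 in DCTCF1 and 39.2 and 41.6 in DCTCF2. It was 44.2 and 42.2 in DCTCF3 and 43.9 and 46.5 in DCTCF5. The log2 differences of these lines from wild type ESC ran from -0.29 to -0.14 (limma, adjusted p of 0.103 to 0.392).

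The pairs of smallest p in DCTCF1 joined Mnx1 to the Shh side. With the Shh bin Mnx1 had 8.85 and 8.03 in DCTCF1, against 33.4 and 14.9 in wild type ESC (log2 difference -1.07 ± 0.27, SE; limma, adjusted p = 0.215), and with bin 21 it had 12.4 and 8.17, against 39.2 and 22.4 (log2 difference -1.23 ± 0.28, SE; limma, adjusted p = 0.215). In DCTCF2 and DCTCF3 the pair of smallest p was Mnx1 with bin 79, the pair that passed in DCTCF4. It had 16.9 and 14.6 in DCTCF2, and 19.1 and 14.7 in DCTCF3 (limma, adjusted p = 0.287 and 0.363). In DCTCF5 Nom1 with the boundary bin 65 had 68.6 and 85.9, against 51.3 and 56.5 in wild type ESC (log2 difference 0.48 ± 0.10, SE, of the mean; limma, adjusted p = 0.0732). Nom1 bin 68 with bin 5 was among the 3 pairs of smallest p in DCTCF1, DCTCF2 and DCTCF5, with means of 30.7, 27.9 and 32.7, against 12.9 in wild type ESC, whose 2 libraries had 18.3 and 7.50.

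Across the boundary, the 5 DCTCF lines left the pairs of the ZRS bin with both genes within 0.35 of wild type on the log2 scale. Nom1 bin 69 with the ZRS ran from -0.26 in DCTCF4 to 0.22 in DCTCF5, and Mnx1 with the ZRS from -0.35 in DCTCF4 to 0.07 in DCTCF1, with standard errors of 0.15 and 0.19. None passed, and these errors do not allow a statement that the contacts were equal.

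**Figure D5:**
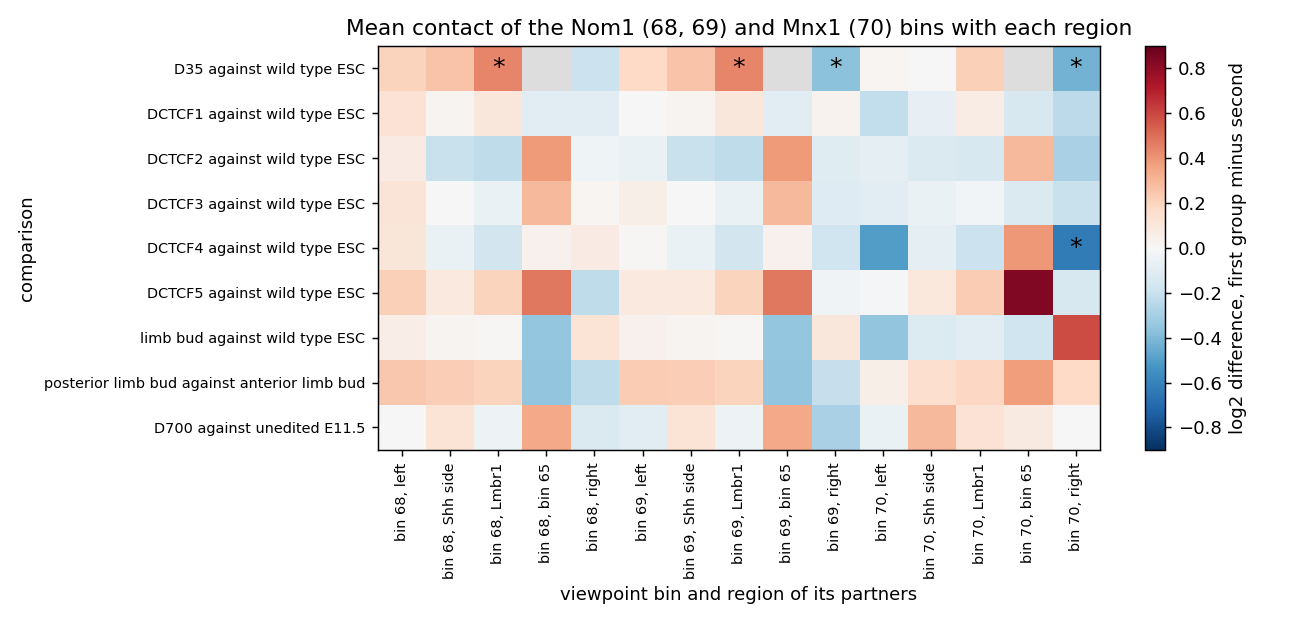
Log2 difference of the mean contact of each Nom1 and Mnx1 bin with 5 regions, for each comparison, as a heat map (red: higher in the first group named; grey: not tested). Stars mark adjusted p under 0.05 by limma: 4 means in D35 and the mean of Mnx1 with the right domain in DCTCF4.

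Between the posterior limb bud, where Shh is expressed, and the anterior limb bud, no pair of the 3 bins and none of their means passed (0 of 221 and 0 of 15, against 0% of all pairs, and 0% higher and 0.522% lower of all means). At an unadjusted p under 0.05, 19 pairs were higher (8.60%, against 5.50% of all pairs) and 3 lower (1.36%, against 2.42% of all). The median log2 difference was 0.14 over the pairs of the 3 bins and 0.08 over all pairs. The smallest p belonged to a value shared by Nom1 bins 68 and 69 with bins 0 and 1, which was 14.6 and 11.9 in the posterior and 6.59 and 5.66 in the anterior limb bud (log2 difference 0.70 ± 0.17, SE; limma, adjusted p = 0.537). The mean of Nom1 with Lmbr1 was 13.2 and 13.4 in the posterior limb bud, against 11.6 and 10.2 in the anterior limb bud. Its log2 difference was 0.20 ± 0.09 (SE, limma, adjusted p = 0.336). Mnx1 with Lmbr1 was 14.7 and 16.0 in the posterior, against 14.5 and 11.4 in the anterior limb bud (adjusted p = 0.380). Nom1 bin 69 with the ZRS bin had 13.6 ± 1.2 in the posterior and 11.3 ± 1.1 in the anterior limb bud (SD, n = 2 each; limma, adjusted p = 0.701).

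The fragment counts gave no call by edgeR among 1432 fragment pairs with a Nom1 or Mnx1 fragment, nor among all 17795 tested (0% in both directions). At an unadjusted p under 0.05, 13 were higher (0.908%, against 0.826% of all) and 97 lower (6.77%, against 4.8% of all) in the posterior limb bud. DESeq2 called 16 of the 1432, 2 higher and 14 lower (1.12%, against 0.641% of all 17795). The smallest p was that of Shh_460 (chr5:29706211-29709705) with Shh_491, with 167 and 477 counts in the posterior, against 736 and 961 in the anterior limb bud (log2 difference -1.55, adjusted p = 0.756). This pair joins Mnx1 to bin 66, as does the top pair above, and the 2 pairs had opposite signs. Next came Shh_487 (bin 69) with Shh_508 (bin 72), with 31 and 35 counts in the posterior, against 140 and 172 in the anterior limb bud, and Shh_95 (bin 15) with Shh_476 (bin 69), with 0 counts in both posterior libraries, against 68 and 32 in the anterior ones (edgeR, adjusted p = 0.756 each).

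Limb bud and wild type ESC differed by no call among the 3 bins either (0 of 221 pairs, against 0% higher and 0.0701% lower of all; 0 of 15 means, against 0%). At an unadjusted p under 0.05, 7 pairs were higher and 7 lower (3.17% each, against 8.62% higher and 5.78% lower of all pairs). Besides the pairs of Mnx1 with Shh and bin 8, the third was Nom1 bin 68 with bin 78, at 53.6 to 62.2 in the limb bud libraries, against 32.2 and 36.8 in wild type ESC (log2 difference 0.70 ± 0.17, SE; limma, adjusted p = 0.215). Mnx1 with the right domain was 57.1 to 119.9 in the limb bud, against 50.8 and 49.7 in wild type ESC (adjusted p = 0.317), a mean that includes the pair with bin 66. Nom1 with Lmbr1 was 10.3 to 13.4 in the limb bud, against 11.9 and 12.0 in wild type ESC.

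D700 embryos lack bins 27 to 58 in their matrices, a stretch of 672 kb, so their 128 pairs with a Nom1 or Mnx1 bin were set against the same pairs of the 5 unedited E11.5 libraries. Whole D700 embryos, limb buds and body differ in tissue, and the comparison cannot separate this from the deletion. Bins on either side of the missing stretch, such as bin 24 and Mnx1, also lie closer along the DNA once it is deleted. For such pairs a shorter distance and a change in folding cannot be told apart. 1 pair rose (0.781%, against 0.806% of all 993 pairs), Mnx1 with bin 24, close to Shh. It was 25.4 and 30.8 in D700, against 8.51 to 20.1 in the unedited libraries (log2 difference 0.80 ± 0.14, SE; limma, adjusted p = 0.0483). The call sat at the threshold and was lost in 11 alternatives, among them leaving out either D700 library, either anterior limb bud library or the embryo body (adjusted p of 0.146 to 0.684). No pair fell (0% of all) and none of the 15 means changed (4.82% of all means rose, 0% fell). The mean of Nom1 bin 69 with the right domain was 33.8 and 35.6 in D700, against 41.5 to 49.8 in the unedited libraries (log2 difference -0.29 ± 0.07, SE; limma, adjusted p = 0.109).

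Contacts of the 2 genes across the boundary overlapped between D700 and unedited embryos. Nom1 with Lmbr1 was 15.6 and 17.3 in D700, against 13.1 to 19.8 in the unedited libraries (log2 difference -0.05 ± 0.08, SE), and Mnx1 with Lmbr1 was 20.8 and 23.7, against 14.7 to 21.6 (0.13 ± 0.10, SE; limma, adjusted p = 0.786 and 0.512). Mnx1 with bin 66 spanned 319.7 and 1802 in D700, against 319 to 1484 in the unedited libraries, so that the groups overlapped over most of their range.

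Finally, the bins whose contact profile was most like that of each gene in wild type ESC are given as a description. Over 71 partner bins, the observed over expected of Mnx1 bin 70 correlated most with that of bin 5 (r = 0.72), bin 8 (r = 0.71) and bin 4 (r = 0.61), all at the far left end. That of Nom1 bin 69 correlated most with bin 77 (r = 0.62), bin 76 (r = 0.60) and bin 8 (r = 0.56). These correlations share libraries and neighbouring bins share values, so no test was made.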

How the data were processed

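The deposited binned matrices hold a signal, a contact value per pair of 21 kb bins (mm9, per the labels). They are not whole numbers. Normalization, aligner and software: not given in the sources used here. For the 14 ESC libraries the authors also deposited a ratio, observed over expected, and for the 4 limb bud libraries whole-number counts per pair of 343 HindIII fragments. 19 deposited sum matrices were not used. The total of contact values per library was 54010 to 65080, which is not a depth. The limb fragment totals were 749738 to 1400833 counts, and the depth of the other libraries is unknown.

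Pairs separated by 2 or more bins, with a value over 0 in 50% or more of the libraries, were scaled to 1 total per library and tested as log2(value + pseudocount) by limma 3.58.1 in R 4.3.3, with trend. As pseudocount served the 5th percentile of all nonzero values (4.55 for DCTCF lines, 4.54 for D35, 5.34 for limb bud parts, 5.17 for limb bud against ESC and 8.55 for D700), so fold changes of low pairs are understated. All ESC libraries entered 1 fit. Bin 65 was left out for D35 in these fits, but not in the direction values. Fragment counts were tested by edgeR 4.0.16, with DESeq2 1.42.0 as an alternative. Observed over expected was recomputed for all libraries, for D700 at the bin separations of the undeleted map. The direction and Mnx1 minus Nom1 values used an exact sign-flip permutation test. The limma and edgeR steps were tested on simulated data.

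The Nom1 and Mnx1 bins, the regions and the named pairs were chosen with earlier results of these data known. Pairs named are those that passed (up to 8), or the 3 of smallest p, with the pairs of bins 69 and 70 with bins 22, 63, 66 and 67 and of 68 with 70; for fragments up to 5 that passed, or the 3 of smallest p. Alternatives covered scaling, pseudocount, separation, observed over expected, control group, run year, left-out libraries, a replicate block and filters.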

Additional observations from a re-analysis of the deposited data

How the results depend on the processing

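For the direction, bins 68 and 70 kept sign and threshold in every alternative run, with means over left-out libraries of 0.53 to 0.58 and -0.94 to -0.80. Bin 69 gave -0.18 to -0.13 without 1 library, but 0.061 (adjusted p = 0.117) without bin 65, 0.040 (adjusted p = 0.433) without bin 66 and, over 7 line means, -0.15 (adjusted p = 0.0781). Of the Mnx1 minus Nom1 differences, Lmbr1 and the left end held throughout. The Shh side gave 0.14 (adjusted p = 0.0781) over line means, and the far right -0.41 (adjusted p = 0.0625) over line means and -0.014 (adjusted p = 0.891) against bin 69 alone. The alternatives of bin 66, of line means and of a right domain from bin 67 were chosen after seeing the data.

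With the other edited lines as control, pairs and means called for the 3 bins were 1 and 2 in DCTCF1, 2 and 6 in DCTCF2, 3 and 2 in DCTCF3, 11 and 6 in DCTCF4, 3 and 5 in DCTCF5, and 18 and 6 in D35. In that order of lines, these were 0.452, 0.905, 1.36, 4.98, 1.36 and 8.26% of the pairs of the 3 bins. Of their means, 15 or in D35 12, they were 13.3, 40, 13.3, 40, 33.3 and 50%. Calls among all bins were also more frequent under that control. They were 1.05, 0.21, 0.315, 4.49 and 1.09% of all pairs and 22.7, 20.9, 4.18, 14.4 and 17.0% of all means in DCTCF1 to DCTCF5. In D35 they were 4.72% of all pairs and 21.1% of all means. In DCTCF4, observed over expected computed here and run year as a covariate each left 1 pair, and 2 means passed with a separation of 1 bin, with either version of observed over expected, and with distinct values only. In DCTCF5, 2 means passed with either version of observed over expected. In D35, 2 pairs passed without bin 66. Without 1 library, the calls ranged as pairs from 0 to 12 in DCTCF4, 1 to 3 in D35, 0 to 3 between limb bud parts and 0 to 3 in D700. As means they ranged from 1 to 2 in DCTCF4, 0 to 2 in DCTCF5, 1 to 4 in D35 and 0 to 1 between limb bud parts.

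D700 depends on the scaling. Deposited totals were 55710 and 54970 in D700, over 132 pairs with a Nom1 or Mnx1 bin. In the unedited E11.5 libraries they were 54320 to 62610, over 225 such pairs. As deposited, 122 of 128 pairs and 14 of 15 means were called higher. The median moved by 0.80 on the log2 scale over all pairs and by 0.72 over the pairs of the 3 bins. With that shift of all pairs, 7 named pairs turned sign, which says nothing of these pairs in particular: 0.81 (bin 8 with Mnx1), 0.71 and 0.78 (ZRS with bin 69 and Mnx1), 0.66 (bin 66 with 69), 0.66 and 0.79 (bin 67 with 69 and Mnx1) and 0.98 (bin 68 with Mnx1). The single D700 pair became 0 with a pseudocount 4 times as large, with observed over expected computed here, with the replicate block, without bin 66 and with either the embryo body or the limb bud libraries alone as control. DESeq2 called 16 fragment pairs of the 3 bins (114 of all) where edgeR called 0. The cause of these changes was not tested.

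Replicate numbers do not pair the libraries: deviations of equal numbers correlated at -0.09 to 0.02. With them as a replicate block, 1 pair passed between limb bud parts and 0 in D700, and no other count moved by over 1.5 times. Pairs of bins are not independent, since neighbouring bins share values, and 2 libraries a group limit every estimate of spread.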
